A study of Sus scrofa with 12 samples.

Results

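Zinc-finger genes make up the largest class of transcription factor genes in mammals, and their messages were examined here in porcine mesenchymal stromal/stem cells (MSCs) and in the extracellular vesicles (EVs) that these cells released. A gene was taken as a member when its symbol began with ZNF, ZFP, ZBTB, ZSCAN or ZKSCAN followed by a digit, and of several entries under 1 symbol only the most-read entry counted. In this way 223 of 13363 named genes were members, 184 of them ZNF or ZFP genes, 26 ZBTB genes and 13 ZSCAN or ZKSCAN genes. The rule reads only the name and uses no measured difference between EVs and MSCs. The class itself, however, was chosen with earlier results of these data known. From these libraries the paper reported zinc finger proteins among the annotations of EV-enriched mRNAs that are predicted targets of EV-enriched miRNAs. The class was therefore not chosen blind to the data.

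The C2H2 zinc finger is a short fold held by a zinc ion between a pair of cysteines and a pair of histidines, and a row of such fingers reads a stretch of DNA. The front end of the protein divides the subfamilies: many ZNF and ZFP proteins carry a KRAB box, which recruits the corepressor TRIM28 and silences repeated DNA, ZBTB proteins carry a BTB domain, which pairs proteins and binds corepressor or ubiquitin ligase complexes, and ZSCAN and ZKSCAN proteins carry a SCAN domain, which pairs them with each other. The symbols also cover proteins of other kinds, such as ZFP36L1, whose CCCH fingers bind AU-rich stretches of mRNA and bring about its decay, and ZBTB8OS, which encodes the tRNA ligase cofactor archease and is named after its neighbour on the opposite strand.

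MSCs came from the abdominal fat of 3 female domestic pigs aged 3 months, were grown with platelet lysate and were used at passage 3 (MSC group, n = 3). EVs were collected by ultracentrifugation from the supernatants of the MSCs of the same pigs (EV group, n = 3), and replicates 1, 2 and 3 are the same pig in both groups. The labels name no treatment or transgene in either group, and each library is 1 animal. The files hold raw reads counted on genes, 10429085 to 12276855 per library, so a gene with 3 reads in a library stands at 0.232 to 0.303 reads per 1000000 reads on genes (CPM). Levels are given below either as CPM after TMM scaling, which can be compared between libraries, or as the RPKM of the authors, which is also divided by gene length and can be compared between genes. Both are shares of a library, so fewer vesicles with a transcript and less of it in each vesicle cannot be told apart.

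MSC replicate 2 stood apart from the other libraries: its rank correlation with them over all entries tested was 0.858 to 0.918, against 0.904 to 0.965 between the other libraries. The main counts below, and many of the named genes, are given with and without it. Where no value without it is given, a result should not be taken to hold without this library. Of the MSC markers, CD44, NT5E (CD73), ENG (CD105), PDGFRA and PDGFRB were read in every library, whereas the entries of THY1 (CD90) and COL1A2 held 0 reads. The EV marker CD63 had 11678 to 19616 reads in MSC libraries and 8359 to 11838 in EV libraries (log2 fold change -0.53, SE 0.34). CD81 had 319 to 676 and 369 to 400 (-0.36, SE 0.36), so neither of these markers was higher in EVs. CD9 and ITGB1 (CD29) had at most 7 reads per library, and PDCD6IP and TSG101 were not found under those symbols. Of 5 endothelial markers, VWF was at 0, KDR had 1 read and TEK 5 in all, and PECAM1 had 111 to 215 reads in MSC libraries against 20 to 78 in EV libraries (log2 fold change -1.71). The summed level of this list was 9.65 to 16.6 CPM in MSCs and 1.64 to 6.66 CPM in EVs. Of 6 leukocyte and macrophage markers, CD14 had 469 to 588 reads in MSC libraries and 416 to 771 in EV libraries. CD68 had 26 to 56 and 18 to 37, AIF1 was at 0, and PTPRC (CD45), CSF1R and ITGAM had at most 10 per library. Their summed level was 48.7 to 51.2 CPM in MSCs and 45.2 to 63.9 in EVs. The paper, without reference to RNA reads, describes the MSCs as negative for CD14, CD31 (PECAM1) and CD45. The part of either list in the results below was not tested.

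Reads were found for 205 of the 223 zinc-finger genes. The other 18 were at 0 in all 6 libraries, among them all 10 members on chromosome X, whose entries held no read for any gene. The entries of these 10 name the chromosome without the prefix that the numbered chromosomes carry. Whether this left them at 0 was not tested. A filter on low counts left 180 members for testing (153 ZNF/ZFP, 18 ZBTB and 9 ZSCAN/ZKSCAN), and 25 members with 1 to 68 reads in all were not tested. Among the 180, the count minimum was met in all 6 libraries by 161, in the 3 EV libraries but not in all MSC libraries by 12, and in the 3 MSC libraries but not in all EV libraries by 2. A gene of the 12 was tested only because it was read more in EVs, and 6 of them are among the 27 members that passed the thresholds given below.

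As a class these genes were a small share of the RNA. They held 0.559% to 0.643% of the reads on genes in MSC libraries and 0.590% to 0.721% in EV libraries, the highest with a 95% Wilson interval of 0.716% to 0.725% (counting error only). ZFP36L1 alone held 23.9% to 44.7% of these reads. Its mean level was 162 RPKM in MSCs and 163 in EVs, above 99.3% of all entries tested, while the median member stood at 1.31 RPKM in MSCs and 1.73 in EVs. Next in level were ZNF358 (31.0 RPKM in MSCs, 19.2 in EVs) and ZNF207, a kinetochore and spindle assembly protein also called BuGZ (20.7 in MSCs, 17.9 in EVs). The highest ZBTB entries were ZBTB8OS (10.1 and 11.1 RPKM), ZBTB7A (7.06 and 8.43) and ZBTB7B (7.81 and 7.02). The SCAN genes were the lowest subfamily, with a median of 0.580 RPKM in MSCs and 1.04 in EVs, and ZSCAN29 was the highest of them (1.32 and 2.22 RPKM). The plot of levels shows most members above the line of equal level and the 3 most abundant, ZFP36L1, ZNF358 and ZNF207, on or below it.

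**Figure D1:**
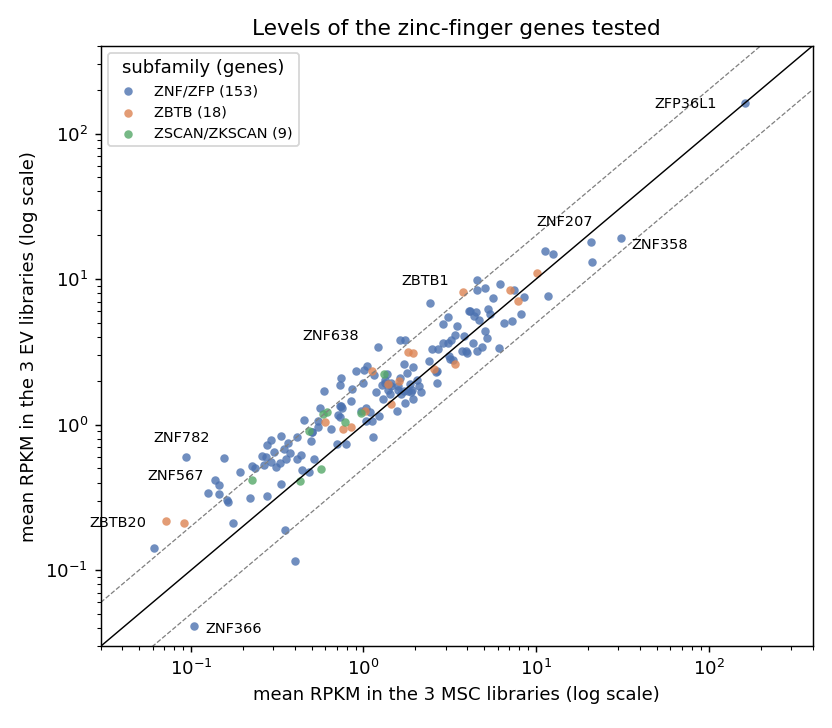
Mean RPKM of the 180 zinc-finger genes tested in the 3 MSC libraries (x axis) and the 3 EV libraries (y axis), both on log scales, coloured by subfamily. The solid line marks equal levels and the dashed lines a 2-fold difference; ZFP36L1 lies far above all others at 162 and 163 RPKM, and 129 of the 180 genes had a log2 fold change above 0.

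The EV libraries were compared with the MSC libraries to ask which zinc-finger messages are richer in the vesicles than in the parent cells. Of the 180 members tested, 27 (15.0%) passed a fold change over 2 in favour of EVs with an unadjusted p under 0.05, the thresholds of the study, where 5.55% of all 12392 entries tested did so. None passed in favour of MSCs, where 3.57% of all entries did. After Benjamini-Hochberg adjustment over all entries edgeR called 0 members and 0 entries of any kind: the lowest adjusted p was 0.219 for a member and 0.129 for any entry, while 41 members and 1978 entries had an unadjusted p under 0.05. DESeq2 called 8 members at an adjusted p under 0.05, all in favour of EVs (ZNF84, ZNF280D, ZNF300, ZNF558, ZNF667, ZNF770, ZNF782 and ZNF827), where 2.04% of all entries were so called, and none in favour of MSCs, where 1.5% were. No single zinc-finger gene is therefore called at the adjusted threshold by the main test, and the differences below are given as sizes with their errors.

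Counts in favour of EVs exceeded those of all entries across the class. A log2 fold change above 0 was found for 129 members (71.7%) against 49.1% of all entries, and the median log2 fold change was 0.38 over members against -0.02 over all entries. Every EV library lay above every MSC library for 60 members (33.3%, against 14.3% of all entries), and every EV library lay below every MSC library for 12 (6.67%, against 13.6%). Taken pig by pig, 79 members (43.9%) were higher in EVs in all 3 pigs, against 22.6% of all entries. The median difference between the EVs and the MSCs of a pig was 0.24 in pig 1, 0.77 in pig 2 and 0.21 in pig 3 on the log2 scale, while the medians of all entries were -0.01, 0.02 and -0.05. Without any filter, 143 of 205 members (69.8%) lay above 0 with a median of 0.34, against 50.8% of all entries.

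The count depended in part on MSC replicate 2. It was the lowest of the 3 MSC libraries for 97 members (53.9%, against 46.0% of all entries) and for 24 of the 27 members past the thresholds. Without it, 15 of 182 members (8.24%) passed the thresholds, 14 of them among the 27, against 4.44% of all entries, and 2 passed in favour of MSCs (ZNF366 and ZNF367), against 3.89%. Without EV replicate 2 the count was 18 (against 4.01% of all entries), without EV replicate 3 it was 19 (against 4.16%), and without MSC replicate 3 it was 34 (against 5.34%). Of the 27 members, 8 passed in all 6 fits that each left out 1 library. With the pig as a replicate block, 32 members (17.8%) passed in favour of EVs and 1 in favour of MSCs, against 8.01% and 5.17% of all entries. None passed the adjusted threshold in that fit (lowest adjusted p of a member 0.0729 from edgeR), where 0.492% of all entries did in favour of EVs and 0.605% in favour of MSCs.

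The subfamilies shared the direction. Of all entries tested, 49.1% had a log2 fold change above 0 and 5.55% passed the thresholds in favour of EVs. The median of the ZNF/ZFP genes was 0.37, with 108 of 153 (70.6%) above 0 and 23 (15.0%) past the thresholds. That of the ZBTB genes was 0.31, with 14 of 18 (77.8%) above 0 and 3 (16.7%) past them. ZBTB37, 1 of these 3, was tested only through the EV libraries. For the ZSCAN/ZKSCAN genes the median was 0.77, with 7 of 9 (77.8%) above 0 and 1 (11.1%) past the thresholds. Differences between the subfamilies were not tested, and the last group rests on 9 genes whose median in pig 2 was 1.41 against 0.25 and 0.21 in pigs 1 and 3. Without MSC replicate 2 the medians were 0.38, 0.37 and 0.50.

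**Figure D2:**
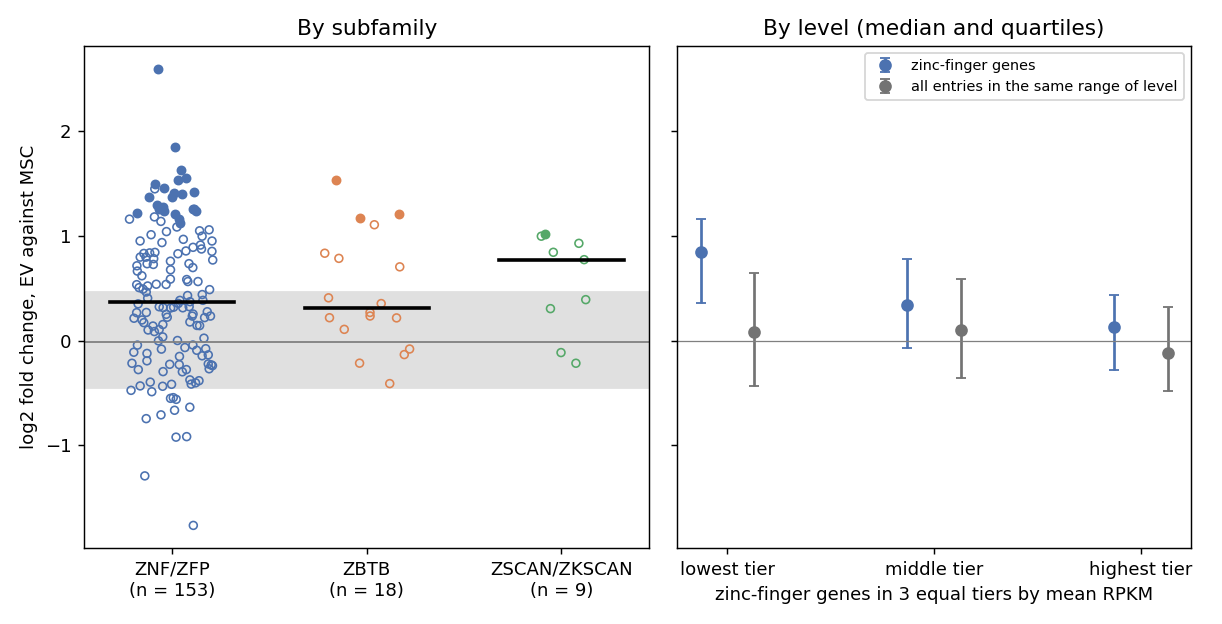
Log2 fold change of EVs against MSCs for each zinc-finger gene tested by subfamily (left: filled points passed a 2-fold change with an unadjusted p under 0.05, black bars are medians, the grey band spans the quartiles of all 12392 entries and the grey line is their median) and as median with quartiles for 3 equal tiers of the genes by level (right, with all entries in the same range of RPKM in grey). The medians fall from 0.84 in the lowest tier to 0.13 in the highest, and those of all entries lie at 0.08, 0.10 and -0.12.

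The difference was larger among genes of low level. Among the 60 members of lowest level (0.0729 to 0.922 RPKM) the median log2 fold change was 0.84, 52 were above 0 and 14 (23.3%) passed the thresholds in favour of EVs. In the 60 of middle level the median was 0.34 with 8 (13.3%) past the thresholds, and among the 60 of highest level (2.47 to 163 RPKM) it was 0.13 with 5 (8.33%). All entries in the same 3 ranges of level had medians of 0.08, 0.10 and -0.12, with 7.17%, 7.01% and 4.09% past the thresholds. The tiers include the 12 members that met the count minimum in the 3 EV libraries but not in all MSC libraries. Being read more in EVs was a condition of testing these members, and their part in the difference between tiers was not tested. In the 60 of highest level 34 were above 0 and 26 below, 16 were higher and 15 lower in EVs in all 3 pigs, and the medians of the pigs were 0.17, -0.12 and -0.01, so these genes showed little shift. Among the 60 of lowest level the pigs gave medians of 0.36, 1.40 and 0.48, and MSC replicate 2 was the lowest MSC library for 70.0% of them. Over the 180 members, Spearman's rho between the log2 fold change and the log2 level was -0.42 and Pearson's r was -0.37, a description across genes that share the same 6 libraries. Gene length did not order the members in the same way (rho 0.00204, r 0.0164, n = 180), and the medians of 3 equal tiers by length were 0.35, 0.49 and 0.35.

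Among the ZNF/ZFP genes the largest difference was that of ZNF782 (ENSSSCG00000011167, chromosome 10 from 76654600 to 76656306 in susScr3). It had 6, 8 and 7 reads in the MSC libraries against 18, 89 and 26 reads in the EV libraries, or 0.465, 0.766 and 0.594 CPM against 1.52, 6.95 and 2.63. EV replicate 2 was far above the other EV libraries, yet all 3 lay above every MSC library. The MSC libraries were all below the count minimum of 0.856 CPM, so the gene was tested only through the EV libraries, where it is high. The log2 fold change was 2.60 (SE 0.66, adjusted p = 0.219 from edgeR), or 1.77 without EV replicate 2.

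ZNF567 (ENSSSCG00000002932, chromosome 6 from 41156402 to 41184718) had 1.70, 2.30 and 0.933 CPM in MSCs and 3.46, 10.2 and 4.15 in EVs, a log2 fold change of 1.85 (SE 0.57, adjusted p = 0.247 from edgeR). The groups did not overlap, but the gene no longer passed the unadjusted threshold without EV replicate 2 (log2 fold change 1.21). ZNF404, with 6 to 13 reads in MSC libraries and 20 to 43 in EV libraries, reached 1.64 (SE 0.54) and fell short of the thresholds without MSC replicate 1, MSC replicate 2 or EV replicate 3. It did not meet the count minimum in every MSC library.

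ZNF280D (ENSSSCG00000026960, chromosome 1 from 127597935 to 127719722) was read more deeply. Its level was 8.60, 3.92 and 7.63 CPM in MSCs and 16, 20.5 and 23.0 CPM in EVs, so the EV libraries were all above the MSC libraries by a clear gap. The log2 fold change was 1.56 (SE 0.37, adjusted p = 0.219 from edgeR) and stayed between 1.29 and 1.77 when each library was left out, past the unadjusted thresholds each time.

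ZNF638, a nuclear RNA-binding protein that acts with C/EBP factors in adipocyte differentiation, had 17.9, 3.06 and 13.7 CPM in MSCs and 26.8, 35.4 and 38.5 CPM in EVs. No EV library reached down to the MSC range, and MSC replicate 2 was far below the other MSC libraries. The log2 fold change was 1.53 (SE 0.57, adjusted p = 0.275 from edgeR), 1.09 without MSC replicate 2, and it missed the unadjusted threshold without EV replicate 2 or EV replicate 3 (1.53 and 1.42).

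Of the 27 members past the thresholds, 26 were higher in EVs in all 3 pigs and 26 had no overlap between the groups. The thresholds were applied to the same libraries and favour such genes, so these counts describe the selection and are not separate evidence. The exception in both was ZNF354B, with 22.7 CPM in EV replicate 3 against 27.4 in MSC replicate 3 (log2 fold change 1.46), named here after its values were seen. Log2 fold changes ran from 1.02 to 2.60, with SE from 0.31 to 0.66 and adjusted p from 0.219 to 0.305 in edgeR. The plot by library shows the blue points of the MSC libraries to the left of the red points of the EV libraries in 26 of 27 rows, and the square of MSC replicate 2 leftmost in most of them.

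**Figure D3:**
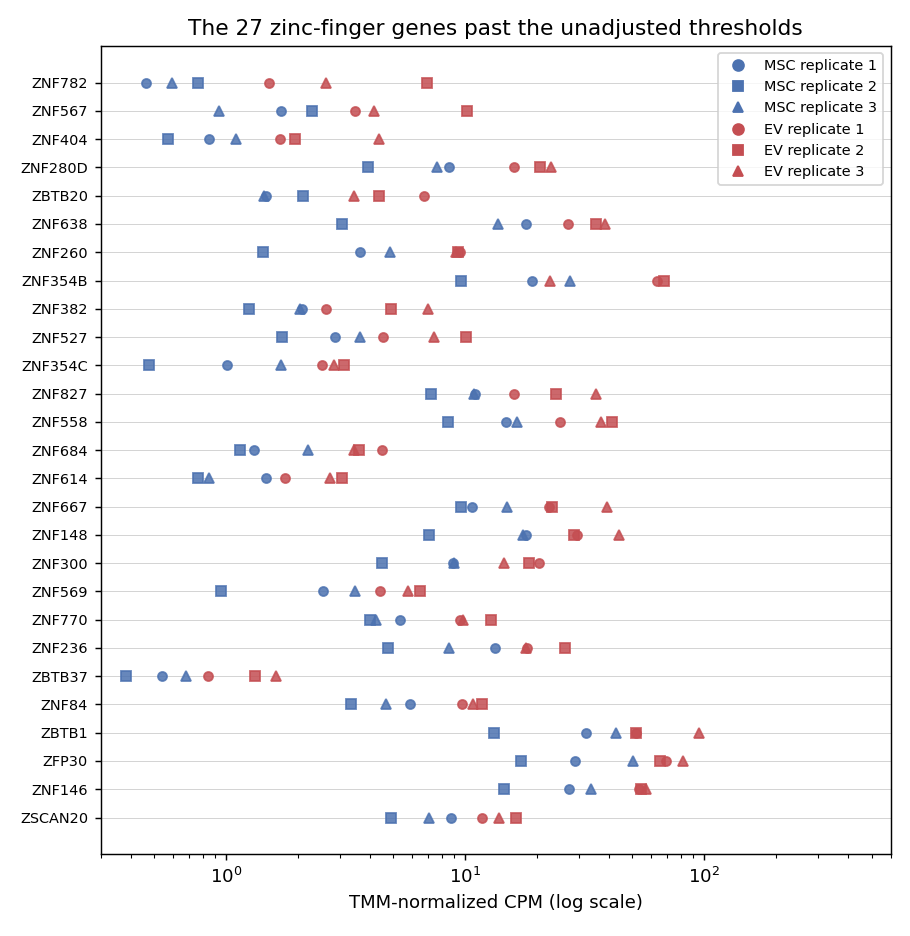
TMM-normalized CPM (log scale) of the 27 zinc-finger genes with a fold change over 2 in favour of EVs and an unadjusted p under 0.05, 1 row per gene ordered by fold change and 1 point per library (blue MSC, red EV; circle, square and triangle are pigs 1, 2 and 3). The groups overlap only for ZNF354B, and MSC replicate 2 is the lowest library for 24 of the 27 genes.

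In the ZBTB subfamily, ZBTB20 (ENSSSCG00000026113, chromosome 13 from 155134436 to 155152622), a repressor known for alpha-fetoprotein in liver and for hippocampal development, had the largest difference. It had 19, 22 and 17 reads in the MSC libraries and 80, 56 and 34 in the EV libraries, or 1.47, 2.11 and 1.44 CPM against 6.75, 4.37 and 3.44, without overlap. Its log2 fold change was 1.54 (SE 0.43, adjusted p = 0.227 from edgeR), between 1.22 and 1.73 when each library was left out, and here MSC replicate 2 was the highest of the MSC libraries.

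ZBTB1 (ENSSSCG00000023724, chromosome 7 from 94971137 to 94973278), needed for lymphocyte development, had 32.1, 13.2 and 42.7 CPM in MSCs and 51.9, 51.9 and 94.6 in EVs. Its groups were apart, and pig 3 was the highest in both. The log2 fold change was 1.17 (SE 0.46, adjusted p = 0.287 from edgeR), but 0.82 without MSC replicate 2 and 0.82 without EV replicate 3, and the unadjusted threshold was also missed without MSC replicate 1.

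ZBTB37 had 7, 4 and 8 reads in MSC libraries and 10, 17 and 16 in EV libraries, a log2 fold change of 1.21 (SE 0.51). Every MSC library was below the count minimum for ZBTB37, so it was tested only through the EV libraries, where it is higher. It kept the unadjusted threshold only where EV replicate 1 was left out, of the 6 fits without 1 library, and missed it with the replicate block (1.201) and with DESeq2 (1.23). ZBTB32 had 1 read in all 6 libraries together, so no difference was detectable at this depth. The abundant members stayed close to equality: ZBTB8OS had 101 to 104 CPM in MSCs and 102 to 116 in EVs (log2 fold change 0.11, SE 0.20), and ZBTB7A, a repressor of fetal globin genes, had 38.3 to 61.2 and 51.7 to 63.3 CPM (0.22, SE 0.25).

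Among the SCAN genes only ZSCAN20 (ENSSSCG00000003621, chromosome 6 from 83827898 to 83841870) passed the thresholds. Its level was 8.75, 4.88 and 7.04 CPM in MSCs and 11.7, 16.4 and 13.9 CPM in EVs, with no overlap (log2 fold change 1.02, SE 0.33, adjusted p = 0.251 from edgeR). The log2 fold change was 0.83 without MSC replicate 2 and 0.91 without EV replicate 2, below a 2-fold change. ZKSCAN8 lay just under the 2-fold line at 1.00 (SE 0.39), with 3.16 to 5.73 CPM in MSCs and 6.25 to 12 in EVs. ZSCAN29 (0.77, SE 0.34, and 0.50 without MSC replicate 2) also had no overlap, whereas ZSCAN26 (0.31, SE 0.36) had 3.54 to 6.28 CPM in MSCs and 5.70 to 7.60 in EVs, ranges that overlap.

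A log2 fold change below 0 was found for 51 members, 8 of them among the 60 of lowest level, 17 of middle level and 26 of highest level. An unadjusted p under 0.05 with a level lower in EVs was found for 4 members, ZNF358, ZNF428, ZNF511 and ZNF524, none of which reached a 2-fold change. ZNF367 (-1.76) and ZNF366 (-1.29) were lower by more than 2-fold but missed the unadjusted threshold. Without MSC replicate 2 they had -2.29 and -1.71 and passed it. ZNF358 (ENSSSCG00000025078, chromosome 2 from 72153993 to 72155697) had 151, 294 and 160 CPM in MSCs and 126, 113 and 122 CPM in EVs. Every EV library lay below every MSC library, and MSC replicate 2 was the highest of all (log2 fold change -0.74, SE 0.31, adjusted p = 0.3002 from edgeR). It was -0.37 without MSC replicate 2 and missed the unadjusted threshold there, without any 1 of the EV libraries, and with the replicate block (-0.67). Without MSC replicate 2, ZNF524 had -0.44 in place of -0.92 and missed it too, and ZNF511 missed it with the replicate block. ZNF428, with 41.7 to 49.0 CPM in MSCs and 25.3 to 30.4 in EVs, had tight groups and no overlap (-0.71, SE 0.22). ZNF207 was also lower in each EV library, by a smaller amount (157 to 167 CPM against 121 to 148, log2 fold change -0.22, SE 0.21).

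Members were also read by their known roles, beginning with RNA decay. ZFP36L1, the mRNA decay factor, had 1300, 3369 and 1412 CPM in MSCs and 1363, 2101 and 2443 CPM in EVs, so the groups overlapped widely and MSC replicate 2 was the highest library. The log2 fold change was -0.04 (SE 0.46) and took the opposite sign, 0.54, without MSC replicate 2. Its relative ZFP36 had 2 reads in all, on an entry that another on the same strand covers for 0.96 of its span. ZFP36L2 was not found under that symbol in the table. Of 9 genes of the CCR4-NOT deadenylase and decapping machinery to which such factors bind, 8 were above 0 and 2 passed the thresholds, against 49.1% and 5.55% of all entries: CNOT6L, a deadenylase, with 361, 136 and 272 reads in MSCs against 374, 644 and 626 in EVs (log2 fold change 1.18, SE 0.38), and DCP2, the decapping enzyme, with 112, 63 and 102 against 117, 236 and 218 (1.11, SE 0.37). MSC replicate 2 was the lowest MSC library for 7 of the 9 genes, and without it CNOT6L had 0.92 and DCP2 0.95, below a 2-fold change.

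Of the mesenchymal and adipogenic regulators, ZNF638 and ZBTB20 passed the thresholds as given above. ZNF423, which commits cells to the preadipocyte lineage, had 31, 31 and 19 reads in MSC libraries and 28, 51 and 17 in EV libraries (log2 fold change 0.22, SE 0.47). ZNF521, which opposes ZNF423, had 47.2 to 56.1 CPM in MSCs and 52.9 to 58.8 CPM in EV replicates 1 and 2, with 123 CPM in EV replicate 3 (0.58, SE 0.35, and 0.10 without that library). ZBTB16 (PLZF) had 35, 13 and 5 reads in MSC libraries, 6, 7 and 2 in EV libraries, and was below the filter. ZNF467 was not found under that symbol.

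Of the factors tied to DNA methylation and imprinting, ZBTB24, which is mutated in the ICF immunodeficiency syndrome, had a log2 fold change of 0.27 (SE 0.29). ZNF445, which maintains imprints, had 0.80 (SE 0.36, and 0.57 without MSC replicate 2), with 6.22 to 12.2 CPM in MSCs and 12.2 to 19.2 in EVs. ZBTB33 (Kaiso), ZBTB38 and ZFP57 were at 0 in all libraries, and ZBTB4 was not found under that symbol. ZBTB33 lies on chromosome X, whose entries held no read, and another entry on the same strand covers ZBTB38 and ZFP57 in full. Whether these genes are expressed can therefore not be told from their counts. Among the ZBTB regulators of blood and immune cells, ZBTB7B (ThPOK), which directs T cells to the CD4 lineage, had 19.2 to 39.6 CPM in MSCs and 19.2 to 25.9 in EVs (-0.21, SE 0.34, and 0.21 without MSC replicate 2), ZBTB17 was at 0, and ZBTB25 and ZBTB46 were not found under those symbols. The entry of ZBTB17 is also covered in full by another entry.

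Of 7 broad promoter-binding factors 5 were tested and 1 passed the thresholds. ZNF148 (ZBP-89), which binds GC-rich promoter elements, had 18, 7.08 and 17.4 CPM in MSCs and 29.5, 28.4 and 43.9 CPM in EVs, all above the MSC range (log2 fold change 1.26, SE 0.40, adjusted p = 0.249 from edgeR). It had 0.94 without MSC replicate 2 and missed the unadjusted threshold without EV replicate 3 (1.03). ZNF143 and its paralog ZNF76, which bind the same promoter element, had 0.25 (SE 0.23) and 0.17 (SE 0.34), ZNF281 had 0.57 (SE 0.33, and 0.29 without MSC replicate 2), and ZNF410, known as an activator of CHD4, had -0.09 (SE 0.24). ZFP64, with 54 reads in all, and ZNF24 were below the filter, and another entry on the same strand covers at least 0.999 of each.

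None of the 5 members that act in ubiquitin or SUMO transfer, the spindle or the ribosome passed the thresholds in either direction, and their median was -0.22. ZNF622, a 60S ribosome maturation factor, had 47.0 to 79.9 CPM in MSCs and 40.5 to 41.4 in EVs (-0.55, SE 0.26), with no overlap, and -0.28 without MSC replicate 2. ZNF598, the ubiquitin ligase that marks collided ribosomes, had -0.43 (SE 0.25), the ubiquitin ligase ZFP91 0.49 (SE 0.33, and 0.24 without MSC replicate 2), and the SUMO ligase ZNF451 0.39 (SE 0.32). Of 16 cofactors with which KRAB, BTB and SCAN proteins work, 11 were tested and none passed in either direction. Their median was 0.26, from -0.27 for the deacetylase HDAC1 to 0.66 for CUL3, the ubiquitin ligase scaffold that binds BTB proteins. SETDB1, the histone methyltransferase of the KRAB pathway, had 487 to 661 reads in MSCs and 488 to 785 in EVs (0.20, SE 0.21), and TRIM28 was not found under that symbol.

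The genes are not spread evenly over the genome. Chromosome 6 held 58 members, of which 51 were tested, 36 (70.6%) had a log2 fold change above 0 and 11 (21.6%) passed the thresholds, against 40.7% and 4.74% of all entries there. Their median was 0.54, while that of all 1096 entries tested on chromosome 6 was -0.15. Tandem clusters, defined as 5 or more members with gaps under 200 kb, held 37 members of which 33 were tested, with a median of 0.68 against 0.32 for the 147 tested outside them. Such neighbours arose by duplication and can share sequence. How the counting treated reads that match several of them is not given in the sources used here. The share past the thresholds was alike, 5 of 33 (15.2%) in the clusters and 22 of 147 (15%) outside them. Members in clusters were of lower level, with a median of 0.708 RPKM in MSCs against 1.45 outside. MSC replicate 2 was the lowest MSC library for 63.6% of them, against 51.7% outside. The part of level and of this library in the larger median was not tested.

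A cluster on chromosome 6 from 41000464 to 41371180 contained ZNF146, ZNF565, ZNF567, ZNF382, ZNF529, ZNF260 and ZNF566. All 7 were above 0, from 0.68 to 1.85, and 4 passed the thresholds. ZNF146 was the most abundant, with 27.3, 14.5 and 33.6 CPM in MSCs and 53.4, 54.4 and 57.3 CPM in EVs, EV libraries that agreed closely with each other and lay above every MSC library (1.13, SE 0.33, adjusted p = 0.237 from edgeR). Without MSC replicate 2 it had 0.86, below a 2-fold change. ZNF260 had 3.64, 1.44 and 4.83 CPM in MSCs and 9.54, 9.37 and 9.21 in EVs, again apart (1.498, SE 0.46). ZNF566, the smallest difference of the cluster, had 23, 21 and 35 reads in MSC libraries, 49, 48 and 29 in EV libraries, and the ranges overlap.

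Read in order along the chromosome, 15 neighbouring members tested from ZNF423 to ZNF546 (30853493 to 44201718) were all above 0, with a median of 1.13 and 7 past the thresholds, whereas 5 neighbours from ZNF579 to ZNF787 (54491235 to 55585249) were all below 0, from -0.92 to -0.27. Without MSC replicate 2 both runs were broken: ZNF579 (0.92) and ZNF787 (0.13) lay above 0, and ZNF546 (-0.10) below it. These runs were picked out after their values were seen. Their levels differed too: the median was 0.501 RPKM in the first run and 4.56 RPKM in the second. The next run, from ZNF667 to ZNF329, was above 0 again in 6 of 6 genes, with 1.57 RPKM at the median.

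**Figure D4:**
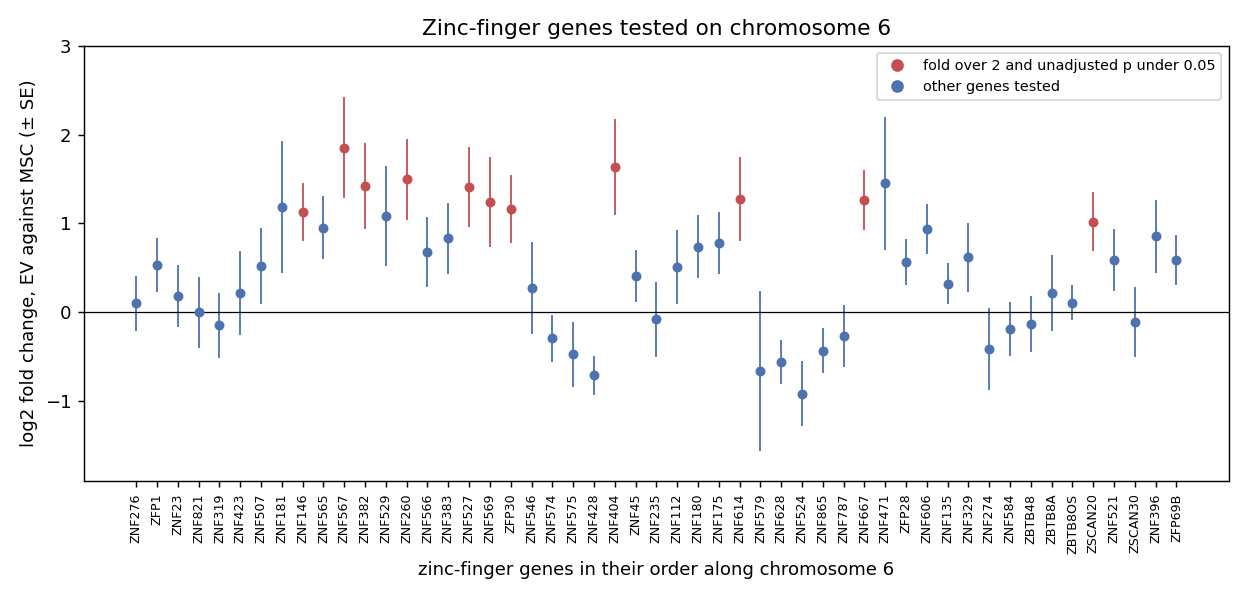
Log2 fold change of EVs against MSCs (points, with bars of ± 1 SE from edgeR) for the zinc-finger genes tested on chromosome 6, in their order along the chromosome but not to scale. A run of 15 genes from ZNF423 to ZNF546 lies above 0 and 7 of them passed the unadjusted thresholds (red), while the 5 genes from ZNF579 to ZNF787 lie below 0. Without MSC replicate 2, ZNF579 and ZNF787 were above 0 and ZNF546 below it.

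Elsewhere, the cluster on chromosome 13 (30515181 to 30786050, with ZKSCAN7, ZNF852, ZNF445, ZNF660, ZNF197 and ZNF502) had 6 of 6 members above 0, from 0.49 to 1.01, and none past the thresholds. ZNF197 was its most abundant member, with 248, 181 and 310 reads in MSC libraries, 401, 520 and 324 in EV libraries (0.77, SE 0.26). The cluster on chromosome 3 (40173817 to 40601806) went the other way, with 1 of 5 above 0 and a median of -0.15. This direction rested on MSC replicate 2: without it all 5 were above 0, from 0.00509 for ZNF213 to 0.39 for ZNF200. The SCAN cluster on chromosome 7 (23730894 to 24154095) had 8 members of which 5 were tested, from -0.21 for ZKSCAN4 to 1.00 for ZKSCAN8.

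The entry GALNS is given a span of 53.6 Mb on chromosome 6 that covers 38 members, and CCDC167 one of 37.5 Mb on chromosome 7 that covers 14. When every entry overlapped by another for at least 0.9 of its span was left out, 17 of 129 members (13.2%) passed the thresholds, against 5.79% of all entries. When only overlaps with nearby entries on the same strand counted, 27 of 175 (15.4%) passed, against 5.72% of all entries.

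Some members set a pig apart in both of its libraries. ZNF579 had 17.2, 129 and 19.5 CPM in MSCs and 16.9, 71.0 and 16.4 CPM in EVs, so pig 2 was high in both the cells and the vesicles (log2 fold change of EVs against MSCs -0.66, SE 0.90). ZNF367 showed the reverse, with 67, 4 and 76 reads in MSC libraries and 26, 3 and 11 in EV libraries, low in both libraries of pig 2 (log2 fold change -1.76). Its reads lie on an entry that another entry on the same strand covers in full. These genes were chosen for this pattern, and it is given without a test. ZNF367 was the member that passed in favour of MSCs with the replicate block (-1.63).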

How the data were processed

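RNA of MSCs and EVs was sequenced. The authors aligned reads with TopHat to susScr3, counted them on genes with featureCounts (the submitters' processing notes also name HTSeq) and deposited raw counts, used for all tests, and RPKM, used for levels. The labels name a stranded total RNA kit and the paper an unstranded mRNA kit. Strand, and whether total RNA or mRNA was sequenced, are therefore uncertain. Of the entries, 29658 were used and 3 with shifted columns were left out. Symbols came from the table for 8 members and from the gene ID for 215 (matched in 11804 of 25322 such entries).

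The count test was edgeR 4.0.16 in R 4.3.3 (TMM, filterByExpr, quasi-likelihood, Benjamini-Hochberg over all entries tested), and scripts were tested on simulated data. Alternatives were DESeq2 1.42.0, limma 3.58.1 on log2 RPKM, other scalings and filters, the replicate block, length trend, overlap, left-out libraries, all rows of a symbol, and ZFP36 genes left out. The overlap with nearby entries was added after seeing the data. Members and lists were chosen with earlier results of these data known.

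Genes named are, in each subfamily, up to 5 in each direction with the largest change past the thresholds and of 1 direction in 3 pigs, the 3 of highest RPKM, the role lists, ZBTB37 and ZBTB32, with others named as chosen later. ENSSSCG identifiers and coordinates are those of the deposited table. Same-numbered libraries are of the same pig, and their deviations from the group means correlated at 0.251, 0.384 and 0.408. P-values measure the spread between 3 animals in each group. The small-RNA libraries were not used here.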

Additional observations from a re-analysis of the deposited data

How the results depend on the processing

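Under the alternatives listed in the methods, the median log2 fold change stayed above 0 in each subfamily: 0.22 to 0.44 for ZNF/ZFP, 0.17 to 0.47 for ZBTB and 0.20 to 0.95 for ZSCAN/ZKSCAN genes. The count of members past the unadjusted thresholds in favour of EVs was 27 in the main fit. Apart from limma on log2(RPKM + 1), it lay between 15 (MSC replicate 2 left out) and 34 (MSC replicate 3 left out). With limma on log2(RPKM + 1) it was 4 (2.22%), close to the 1.88% of all entries, and there the added 1 exceeds the level of many members. It was 24 (13.3%, against 5.62% of all entries) with 0.1 added in its place. Where overlapping entries were left out it was 17 (13.2%, against 5.79%). With the replicate block, which pairs the libraries of a pig, it was 32 (17.8%, against 8.01%), with 1 member lower in EVs and 0 past the adjusted threshold (lowest adjusted p of a member 0.0729 from edgeR). The count of lower members was 0, ranged from 0 to 2 when each library was left out, and was 1 without the filter and 2 with the replicate block and the length trend removed. DESeq2 called 8 members at an adjusted p under 0.05 and edgeR 0.

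Among the 31 members followed one by one through the alternatives, the sign turned for 5 near 0. ZFP36L1 had 0.0598 with the replicate block, 0.0791 and 0.0799 with limma after adding 1 and 0.1, and -0.28 to 0.54 when each library was left out. The same left-out fits gave -0.0291 to 0.50 for ZNF76, -0.40 to 0.21 for ZBTB7B, -0.17 to 0.0098 for ZNF410 and -0.18 to 0.45 for ZNF423. The cause was not tested in any of these. Depth limits the low members: those past the thresholds had as few as 4 reads in a library.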
